A study of Gallus gallus with 8 samples.

Results

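The spectrin-actin membrane skeleton of the lens was examined through 10 genes, SPTAN1, SPTBN1, ANK2, ANK3, EPB41, ADD1, ADD3, TMOD1, TPM1 and TPM3, which were looked up by name among 16906 loci. A locus with the exact name was found for 8 of them. ANK3 was matched under CHANK3, which the RefSeq gene table lists as its synonym, and is described beside the 8 but stays out of their counts unless named. ANK2 was not analysed here. The lenses came from chicken embryos at embryonic day 13 (E13) and were microdissected into the central epithelium (EC), the equatorial epithelium (EQ), the cortical fibers (FP) and the central fibers (FC). These 4 regions follow differentiation, from epithelial cells away from the equator (EC), through cells at the equator (EQ), to younger (FP) and maturing (FC) fiber cells. Each region had 2 RNA libraries, each made from a pool of 100 lenses, so a library averages over many embryos and over every cell of the dissected piece. Per the study's methods, lenses were divided into these 4 regions, so regions share donor lenses. The authors merged both libraries into 1 FPKM per locus and region, which is a read count set relative to transcript length and library size, with a 95% interval from their software. Since each region has a single merged value, no test over libraries was possible. A difference is described by its ratio, by whether the intervals overlap and by how many of all loci show as much.

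Spectrin is a long, flexible protein made of alpha and beta chains, and the ends of its assembled rods bind short actin filaments. Together they form a net on the inner face of the plasma membrane, known best from red blood cells. Ankyrins and proteins of the 4.1 family tie the net to membrane proteins, adducins and dematin gather spectrin at the actin filaments, tropomodulins cap the slow-growing end of the filaments, and tropomyosins lie along them. In lens fibers the net lies under the long lateral membranes, and in mice the loss of tropomodulin 1 disturbs the regular hexagonal packing of the fiber cells.

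The merged FPKM of SPTAN1, SPTBN1, CHANK3 (ankyrin-G) and EPB41 (protein 4.1R) was several-fold higher in fibers than in epithelium, with intervals that overlapped. ADD1, ADD3, TPM1 and TPM3 stayed within a ratio of 2 in the deposited scaling. With the FPKM of FP and FC summed and divided by the sum of EC and EQ, the ratio was 10.7 for SPTAN1, 8.49 for SPTBN1, 6.92 for EPB41, 4.4 for CHANK3 and 2.54 for TMOD1. It was 1.76 for TPM1, 1.56 for ADD3, 0.931 for TPM3 and 0.891 for ADD1. Past a ratio of 2, the limit by which the study's methods define a preference for fibers or epithelium, 4 of the 8 members were higher in fibers and 0 were lower, and CHANK3 was past it as well. With regions rescaled to equal totals, ADD3 (3.08) and TPM1 (3.49) were past it too, and the count was 6. That rescaling also moved the median log2 ratio over 9068 loci from -0.15 to 0.86. The count stayed 4 when regions were divided by their median ratio to EC or by their upper quartile. Shares of all loci were counted in the deposited scaling only. Over all 11829 loci that could be compared (at least 1 FPKM in some region), 16.8% were higher in fibers and 24.6% lower by the same limit. The median ratio was 2.15 over the 8 members and 0.868 over all loci. TMOD1 was the member nearest above the limit and TPM1 the one nearest below it. The genes were chosen with results of these data already known, so these counts are a description.

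**Figure D1:**
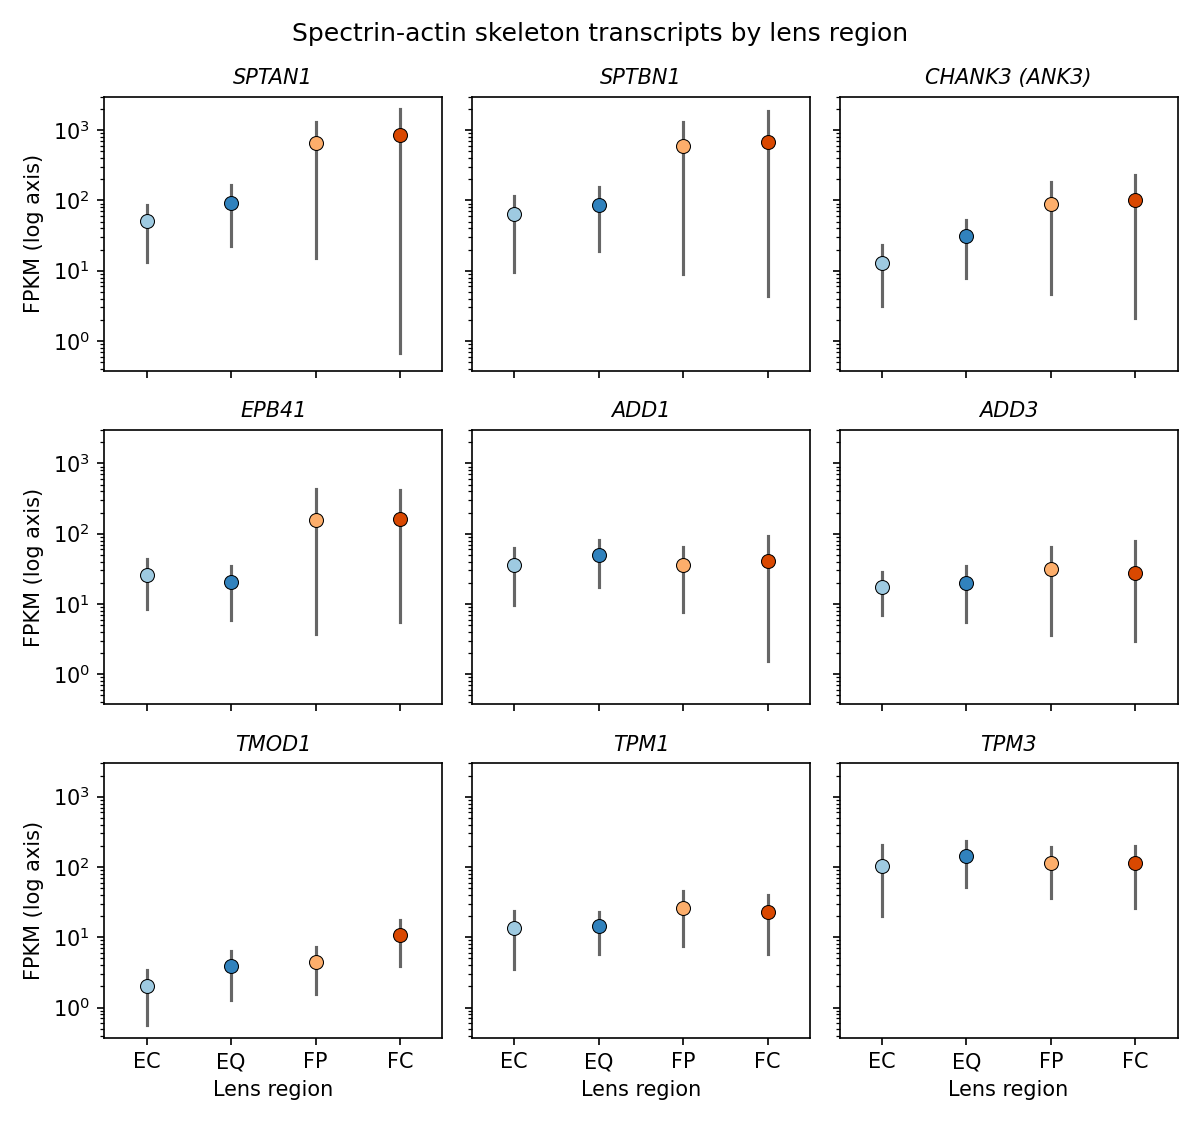
FPKM (log axis) of the 8 members and CHANK3 in EC, EQ, FP and FC. Points are the merged value of a region and bars its 95% interval. SPTAN1, SPTBN1, CHANK3 and EPB41 sit higher in FP and FC than in EC and EQ but with intervals that reach down to the epithelial values, and for TMOD1 the interval of FC (3.94 to 17.4) lies above that of EC (0.563 to 3.38).

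The regions were checked against marker genes. The 5 fiber marker loci used (BFSP1, BFSP2, GJA3, CRYBB1 and CRYBA4) summed to 427, 1402, 46539 and 75634 FPKM in EC, EQ, FP and FC, and PAX6, a regulator of the lens epithelium, had 311, 208, 57.0 and 57.9. FOXE3, which defines lens epithelium in other vertebrates, stayed under 1 FPKM in all regions (0.159 to 0.735). Of the 2 epithelial markers compared, PAX6 was past a ratio of 2 toward epithelium and CDH1 lay within it. Over all loci, 24.6% were past it toward epithelium and 16.8% toward fibers. Red blood cells build the same kind of skeleton, and their markers (7 of 15 names found, at 8 loci) summed to 214 FPKM in FP and 322 in FC, against 1057 in EC and 172 in EQ. The part of red cell RNA in the values below was not tested. Of these loci, 1 of the 2 named HBZ was listed at 0 in all regions, the other in EC, EQ and FP, and TAL1 in EQ. Among other components of the red cell skeleton, SPTB, its beta spectrin, was at 0.675 to 1.33 FPKM and EPB42 at 0.207 to 0.949. The anion exchanger SLC4A1 was at 0.281 to 1.44 FPKM, in a locus of only 2.74 kb that is not placed on a chromosome. EPB41, DMTN and GYPC, described below, were above 100 FPKM in both fiber regions. In such pieces of tissue, fewer cells of a type cannot be told apart from less RNA per cell.

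SPTAN1 encodes alpha-II spectrin, the alpha chain of cells other than red blood cells. It is listed on chromosome 17 from 5139900 to 5193697 of the Galgal4 assembly, a span of 53.8 kb with exons and introns. Its FPKM, with the interval in parentheses, was 50.2 (13.1 to 87.2) at EC and 92.8 (22.2 to 163) at EQ among the epithelial regions, and 662 (15.2 to 1316) at FP and 865 (0.683 to 1998) at FC among the fibers. Both fiber values lay far above both epithelial values, yet the fiber intervals were so wide that all 4 overlapped. By level SPTAN1 ranked 126th of the 16906 loci in FC, against 1070th in EC. Most of the difference lay between EQ and FP, where FP over EQ was 7.13, beside 1.85 for EQ over EC and 1.31 for FC over FP.

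SPTBN1 encodes beta-II spectrin, the usual partner of that alpha chain. Its locus runs from 2625284 to 2715782 on chromosome 3. SPTBN1 had 63.4 (9.45 to 117) at EC and 86.0 (19.1 to 153) at EQ among the epithelial regions, and 586 (9.09 to 1323) at FP and 681 (4.35 to 1876) at FC among the fibers. As for SPTAN1, the fiber values were the high ones and every interval overlapped every other. The ratio for FP over EQ was 6.82, again the largest step, with 1.36 for EQ over EC and 1.16 for FC over FP. The level of SPTAN1 over that of SPTBN1, both in FPKM and so per length, stayed near 1, at 0.792, 1.08, 1.13 and 1.27 in EC, EQ, FP and FC. The pair made up 36.4%, 41.7%, 77.1% and 80.4% of the summed FPKM of the 8 members in these regions.

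The other spectrin genes examined were low by comparison. SPTBN4, a beta chain of axon initial segments, had 8.13, 7.68, 8.25 and 19.6 FPKM in EC, EQ, FP and FC. It lies on a short unplaced scaffold, where the listed locus spans only 1.69 kb. SPTBN5, a very large beta chain, was at 0.235 to 0.315 FPKM. Of the 4 spectrin genes compared, 2 were past a ratio of 2 toward fibers (SPTAN1 and SPTBN1) and 0 toward epithelium. Over all loci the shares were 16.8% and 24.6%. Together SPTAN1 and SPTBN1 held 98.9% of the FPKM of the spectrin genes examined in the fibers and 94.1% in the epithelium.

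Loci that overlap a member in position can share its reads where strand was not used in counting, and whether it was used is not given in the sources used here. WDR34 overlaps SPTAN1 and had 3.32 to 4.73 FPKM over the regions. A locus known only by an Ensembl identifier overlaps SPTBN1. It had 5.71 FPKM in EC, was listed at 0 in EQ, and had 25.8 in FP and 56.0 in FC. A small nuclear RNA locus, U1, overlaps ADD1 and was listed at 0 in EC and FC, at 3.8 FPKM in EQ and at 19.7 in FP. No listed locus overlaps the other members or CHANK3.

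Ankyrin-G, the product of ANK3, couples spectrin to proteins of the lateral membrane. CHANK3 is listed on chromosome 6 from 8174621 to 8516386 and spans 342 kb. Its FPKM came to 13.1 (3.14 to 23.0) at EC and 30.7 (7.96 to 53.4) at EQ among the epithelial regions, and 89.7 (4.7 to 183) at FP and 103 (2.1 to 231) at FC among the fibers. As deposited it was past a ratio of 2 already at the equator, with EQ over EC at 2.35, where SPTAN1 had 1.85. That ratio of CHANK3 was 1.94 when regions were divided by their median ratio to EC. FP over EQ was 2.93 and FC over FP 1.15. All 4 intervals overlapped.

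EPB41 encodes protein 4.1R, which strengthens the bond between spectrin and actin and holds both to membrane proteins such as glycophorin C. It lies on chromosome 23 from 2560592 to 2622523. EPB41 had 25.7 (8.45 to 43.0) at EC and 20.4 (5.99 to 34.8) at EQ among the epithelial regions, and 156 (3.75 to 435) at FP and 163 (5.56 to 412) at FC among the fibers, and its intervals overlapped throughout. Its EQ over EC ratio of 0.793 was the lowest among the members and its FP over EQ ratio of 7.67 the highest. FC over FP was 1.04, so both fiber regions were nearly level.

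The genes of the protein 4.1 family took different shares of its summed FPKM in fibers and in epithelium, a difference that could not be tested. All 7 genes of the family could be compared, and 2 were past a ratio of 2 toward fibers, EPB41 and EPB41L1 (5.29). Past it toward epithelium were 4, EPB41L3 (0.39), EPB41L2 (0.342), EPB41L5 (0.171) and EPB41L4B (0.167). EPB41L4A lay within the limit at 0.506. Over all loci the shares were 16.8% toward fibers and 24.6% toward epithelium. Rescaled to equal totals, EPB41L3 (0.788) and EPB41L2 (0.685) came within the limit, which left 2 toward epithelium, and EPB41L4A turned in direction (1.02). Division by the upper quartile gave 5 toward epithelium, as EPB41L4A reached 0.488. Division by the median ratio to EC gave 4. No share of all loci was counted under these scalings. EPB41L1, protein 4.1N, had 21.8, 38.3, 159 and 159 FPKM in EC, EQ, FP and FC. Its fiber levels were near those of EPB41, but its EQ over EC ratio was 1.75, against 0.793 for EPB41. Its FP over EQ ratio was 4.17, against 7.67. EPB41L5, which takes part in the remodeling of epithelial junctions, ran the other way with 30.3, 27.0, 4.57 and 5.2, as did EPB41L4B with 23.4, 16.0, 3.28 and 3.29. EPB41L2 and EPB41L3 were both highest in EQ, at 30.0 and 55.7 FPKM. EPB41 and EPB41L1 together held 91.1% of the family's FPKM in the fibers and 32.8% in the epithelium. For no gene of the family were the intervals of both fiber regions apart from those of both epithelial regions.

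**Figure D2:**
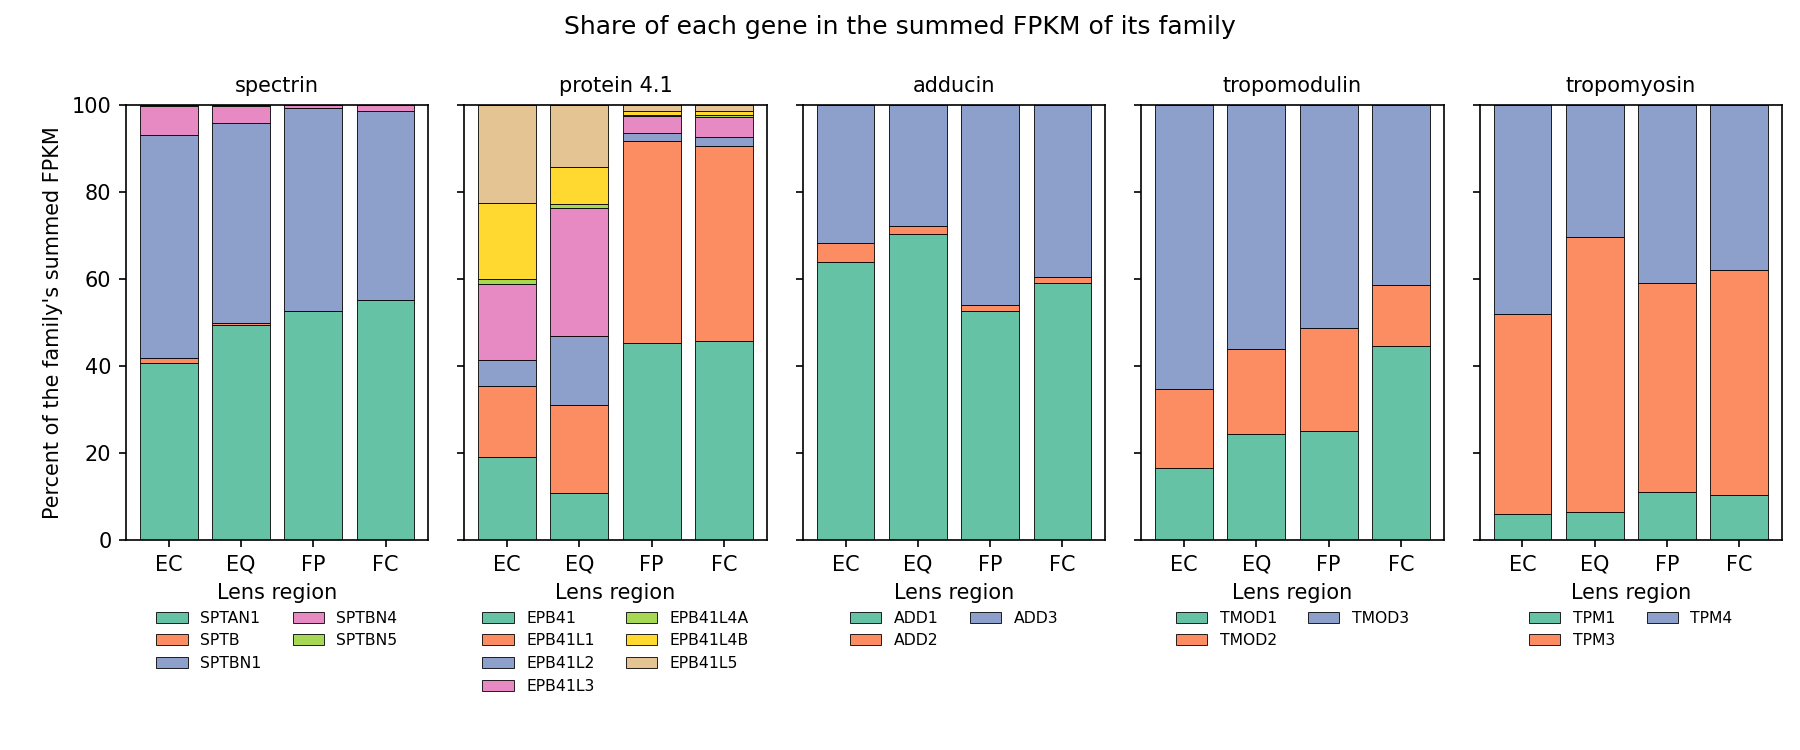
Share (percent) of each gene in the summed FPKM of the genes examined in its family, by region, for spectrins, proteins 4.1, adducins, tropomodulins and tropomyosins. EPB41 and EPB41L1 take 35.4%, 31.0%, 91.7% and 90.6% of the protein 4.1 family from EC through FC, while SPTAN1 and SPTBN1 make up at least 92.1% of the spectrin genes examined in every region.

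Adducins cap the fast-growing end of the actin filaments and recruit spectrin to them. ADD1, alpha adducin, is on chromosome 4 from 81861190 to 81918087 and had 35.7 (9.8 to 61.6) at EC and 50.1 (17.7 to 82.6) at EQ among the epithelial regions, and 35.7 (7.57 to 63.9) at FP and 40.7 (1.54 to 93.4) at FC among the fibers. EQ was the highest of these values, and the steps were 1.41 for EQ over EC, 0.712 for FP over EQ (above 1 when regions were rescaled to equal totals) and 1.14 for FC over FP. ADD3, gamma adducin, is on chromosome 6 from 25264734 to 25352280 and had 17.7 (6.87 to 28.5) at EC and 19.9 (5.46 to 34.3) at EQ among the epithelial regions, and 31.3 (3.64 to 64.7) at FP and 27.2 (2.99 to 79.2) at FC among the fibers. The fiber values of ADD3 were the higher ones, with FP over EQ at 1.57 and intervals that overlapped. ADD2, beta adducin, a form of blood and brain cells, had 2.39, 1.33, 0.963 and 0.87 FPKM in EC, EQ, FP and FC, and its ratio of fibers over epithelium, 0.493, was past the limit toward epithelium as deposited but 0.98 after rescaling to equal totals. The summed FPKM of adducins was 137 over both fiber regions and 127 over both epithelial regions. The level of SPTAN1 over that of ADD1 was accordingly 1.41, 1.85, 18.6 and 21.2 from EC through FC.

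TMOD1 encodes tropomodulin 1, which caps the slow-growing end of the short actin filaments of the net. It lies on chromosome Z from 70616134 to 70631808 and was the least abundant member in all regions. TMOD1 had 2.02 (0.563 to 3.38) at EC and 3.93 (1.27 to 6.47) at EQ among the epithelial regions, and 4.42 (1.55 to 7.18) at FP and 10.7 (3.94 to 17.4) at FC among the fibers. EQ and FP were close together, EC lay below and FC above them, so TMOD1 had no large step between EQ and FP as the spectrins did. Its ratio for FC over FP was 2.43, with 1.94 for EQ over EC and 1.12 for FP over EQ. It was the only one of the 8 members past a ratio of 2 between FC and FP, where 3.38% of 11501 loci were higher in FC and 3.39% lower. In the comparison of FC with EC, the intervals were apart for TMOD1 alone of the 8 members, and over 11624 loci the interval of FC lay above that of EC at 2.68% and below it at 3.08%. By the ratio of 2, 4 of the 8 members were higher in FC than in EC and 0 lower, against 21.6% and 22.6% of these loci.

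TMOD3, the tropomodulin of most cell types, had 7.95, 9.0, 9.0 and 9.97 FPKM in EC, EQ, FP and FC, and TMOD2, a neuronal form, had 2.19, 3.14, 4.15 and 3.4. TMOD1 thus made up 16.6%, 24.4%, 25.1% and 44.5% of the FPKM of these 3 genes. LMOD3, a leiomodin that nucleates actin in skeletal muscle, had 3.32 (1.02 to 5.57) in FP and 2.56 (0.836 to 4.27) in FC, against 0.37 (0 to 0.65) in EC and 0.321 (0 to 0.557) in EQ. Both fiber intervals of LMOD3 lay above both epithelial ones, which held at 1.17% of all compared loci in this direction and at 0.44% in the other. Muscle markers, of which 8 of 9 names were found and none was at 0, summed to 39.8 FPKM in FP and 32.9 in FC, against 27.2 in EC and 64.2 in EQ. Most of the sum in EQ came from TAGLN and TNNC1. Of 5 muscle markers compared, 1 was past a ratio of 2 toward fibers (DES, desmin, 6.03) and 1 toward epithelium (TAGLN, 0.283). The remaining 3 markers lay between. Over all loci the shares were 16.8% and 24.6%. DES had 1.04, 0.938, 5.72 and 6.23 FPKM in EC, EQ, FP and FC, with intervals that all began at 0 and overlapped. The part of muscle RNA in the LMOD3 values was not tested.

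Tropomyosins run along the actin filaments and set which other proteins can bind there. TPM3 is on chromosome 25 from 1329824 to 1341526 and was the most abundant member in EC and EQ. It had 104 (20.0 to 206) at EC and 141 (52.0 to 231) at EQ among the epithelial regions, and 116 (36.1 to 195) at FP and 112 (26.3 to 199) at FC among the fibers. No value differed from that of a neighboring region by a ratio of 1.5 or more. TPM1, on chromosome 10 from 3666751 to 3687521, had 13.4 (3.57 to 23.4) at EC and 14.3 (5.85 to 22.7) at EQ among the epithelial regions, and 26.4 (7.55 to 45.2) at FP and 22.5 (5.7 to 39.4) at FC among the fibers. Here the fiber values were the higher, with FP over EQ at 1.85 and intervals that overlapped. TPM4 had 108, 67.6, 98.9 and 82.3 FPKM in EC, EQ, FP and FC. The summed level of all 3 genes was 225, 223, 241 and 217 FPKM, and TPM1 made up 10.7% of it in the fibers and 6.18% in the epithelium.

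The order of the members by level therefore differed between the ends of the series. In EC it ran TPM3, SPTBN1, SPTAN1, ADD1, EPB41, ADD3, TPM1, CHANK3 and TMOD1, and in FC it ran SPTAN1, SPTBN1, EPB41, TPM3, CHANK3, ADD1, ADD3, TPM1 and TMOD1. Neighbors in the order of each region had overlapping intervals except for TPM1 and TMOD1 in FP. The highest of the 8 members exceeded the lowest 51.2, 36.0, 149.9 and 80.6 times from EC through FC. Relative to the FPKM, intervals were wider in FC than in EC for SPTAN1, SPTBN1, EPB41 and CHANK3. The same was so for ADD1 and ADD3, which were within a ratio of 2. In FC the upper bound stood at 2.31 times the FPKM for SPTAN1, against 1.74 times in EC, and for SPTBN1 at 2.75 against 1.85 times. For ADD3 it was 2.91 against 1.61 times, and for ADD1 2.29 against 1.73 times. For TMOD1 it was 1.63 times in FC and 1.67 times in EC, while the median over all loci of at least 1 FPKM was 1.81 and 1.67 times.

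By step, 0 of the 8 members were past a ratio of 2 for EQ over EC in either direction, where 8.82% of 11748 loci were higher in EQ and 9.64% lower. For FP over EQ, 3 of the 8 were higher (SPTAN1, SPTBN1 and EPB41) and 0 lower, where 15.3% of 11549 loci were higher in FP and 25.3% lower. These genes lay above 96.4% (SPTAN1), 96.1% (SPTBN1) and 96.7% (EPB41) of all loci for that ratio. For FC over FP, TMOD1 lay above 98.2% of loci. Intervals were apart at 0 of the 8 members in each of these steps. Over all loci they were apart at 0.724% (higher in EQ) and 0.664% (lower) for EQ over EC, at 2.28% and 2.41% for FP over EQ, and at 0.0348% and 0.0% for FC over FP, so separation of this kind was rare in the whole table. The deposited bounds do not always enclose the estimate. Of 16906 loci, 387, 291, 238 and 254 had an FPKM above its own upper bound in EC, EQ, FP and FC. This was not so for the members or CHANK3.

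**Figure D3:**
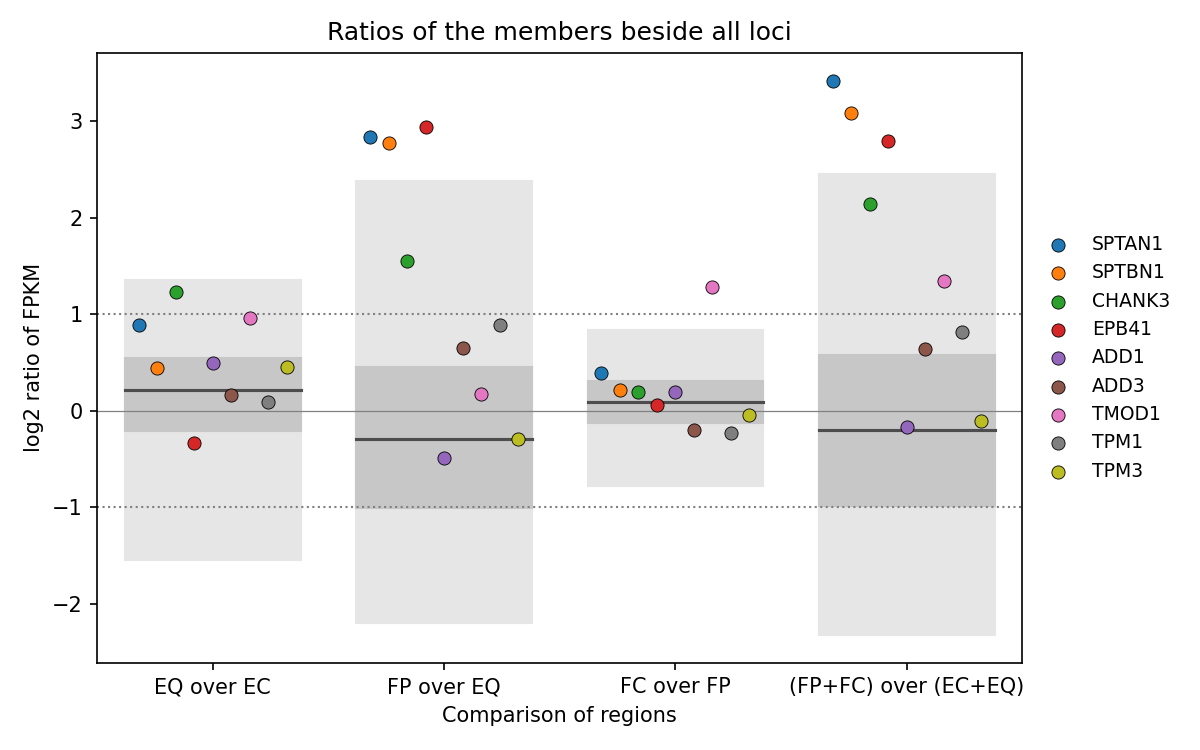
Log2 ratio of FPKM for each member and CHANK3 (points) between neighboring regions and for summed fibers over summed epithelium. Light boxes span the 5th to 95th percentile of all compared loci, dark boxes the 25th to 75th, lines mark the median, and dotted lines a ratio of 2 in either direction. SPTAN1, SPTBN1 and EPB41 stand above the light box for FP over EQ (2.83, 2.77 and 2.94 on the log2 scale), and TMOD1 stands above it for FC over FP (1.28).

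The ratios depend on how the regions were scaled to each other. In the deposited FPKM, the median log2 ratio of fibers over epithelium was -0.15 over 9068 loci with at least 1 FPKM in all regions. Rescaling each region to the same FPKM total moved it to 0.86. The 3 loci of highest FPKM held 81.1%, 79.4%, 72.8% and 61.8% of that total in EC, EQ, FP and FC. This rescaling was therefore set mostly by very few loci. The totals were 5979419, 5908466, 3429205 and 2624540 FPKM in EC, EQ, FP and FC. They lack the delta-crystallin transcript, which the authors omitted from this run and found to be fiber preferred in a separate one. The part of that omission in the rescaled ratios and counts was not tested. The median was -0.02 after division by the median ratio to EC and -0.20 after division by the upper quartile. Under all 3 of these scalings, the fiber over epithelium ratios of SPTAN1, SPTBN1, EPB41, TMOD1, TPM1 and ADD3 stayed above 1. ADD1 had 0.891 as deposited and 1.79 after rescaling to a total. TPM3 had 0.931 as deposited, 1.86 after rescaling to a total and 1.03 after division by the median ratio to EC, so the direction of both genes depended on the scaling.

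Genes that work beside the net were taken from lists of junction proteins, actins, capping proteins, ERM proteins and membrane partners, with the paralogs above and proteases. Without the members, 37 such genes were compared, of which 11 were past a ratio of 2 toward fibers and 10 toward epithelium, beside the 16.8% and 24.6% of all loci given above. Their median ratio was 1.12. These counts depend on the scaling. When regions were rescaled to equal totals, 21 were past the limit toward fibers and 4 toward epithelium. That rescaling also moved the median log2 ratio over 9068 loci from -0.15 to 0.86, and no share of all loci was counted under it. Division by the median ratio to EC gave 12 and 8, and division by the upper quartile 10 and 11. These alternatives were applied to the lists after the data were seen. The largest ratio, 153, belonged to dematin (DMTN, listed as EPB49), which bundles actin and binds spectrin in the red cell skeleton. DMTN had 503 (62.8 to 940.3) FPKM in FP and 1047 (104 to 1977) in FC, against 5.44 (1.53 to 9.3) in EC and 4.7 (1.23 to 7.97) in EQ. Both fiber intervals lay above both epithelial intervals. The locus is a piece of 6.69 kb on an unplaced scaffold. MPP1, a partner of protein 4.1R and glycophorin C, had 14.6, 31.4, 62.1 and 45.9 FPKM in EC, EQ, FP and FC, and stomatin (STOM), a protein of the inner membrane face, had 2.53, 2.43, 1.4 and 1.03.

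Among 8 membrane partners compared, 3 were past a ratio of 2 toward fibers and 2 toward epithelium, beside 16.8% and 24.6% of all loci. GYPC, glycophorin C, which protein 4.1R binds, had 783 (2.42 to 2237) FPKM in FP and 590.2 (0.163 to 3276) in FC, against 5.99 (2.37 to 9.44) in EC and 20.1 (2.85 to 37.4) in EQ, a ratio of 52.7 with intervals that overlapped. NRCAM, an adhesion protein that binds ankyrin, had 91.3 (8.82 to 222) in FP and 95.2 (7.95 to 255) in FC, against 1.03 (0.221 to 2.07) in EC and 2.78 (0.924 to 4.62) in EQ, a ratio of 48.9 with fiber and epithelial intervals apart. Its relative CHL1 had a ratio of 4.37 at levels of 0.481 to 2.95 FPKM. On the epithelial side were CADM1, an adhesion protein, with 32.9, 39.7, 13.5 and 18.0 FPKM in EC, EQ, FP and FC and a ratio of 0.434, and SLC4A1 with 0.464. SLC4A2, a related anion exchanger, lay within the limit at 0.726. Rescaled to equal totals, CADM1 (0.884) and SLC4A1 (0.88) came within the limit and SLC4A2 turned in direction (1.5). ATP1B1 passed the limit toward fibers (3.76, beside 1.91 as deposited). This gave 4 toward fibers and 0 toward epithelium, with no share of all loci counted under that scaling.

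Of the actins, ACTG1 had 29690 (306 to 58118) FPKM in FP and 40946 (189 to 80772) in FC, against 4174 (164 to 8180) in EC and 7339 (47.2 to 20595) in EQ, a ratio of 6.14, in a locus merged with another annotated gene. ACTB had 228, 723, 629 and 636 FPKM from EC through FC. Actin genes are nearly identical in coding sequence and the reads were short, so the split of reads between them is uncertain. For the capping protein of the fast-growing filament end, the ratio was 2.05 for CAPZA1, 1.77 for CAPZB and 0.749 for CAPZA2. The ratio of CAPZA1 came within the limit, at 1.98, after division by the upper quartile. The direction of CAPZA2 turned when regions were rescaled to equal totals. Of the ERM proteins, which link actin to the membrane without spectrin, EZR was past the limit toward fibers (4.34), with 19.5 and 22.1 FPKM in FP and FC, against 5.84 and 3.73 in EC and EQ. RDX (1.54), the related NF2 (1.65) and MSN (0.80, above 1 after the same rescaling) were not past it.

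**Figure D4:**
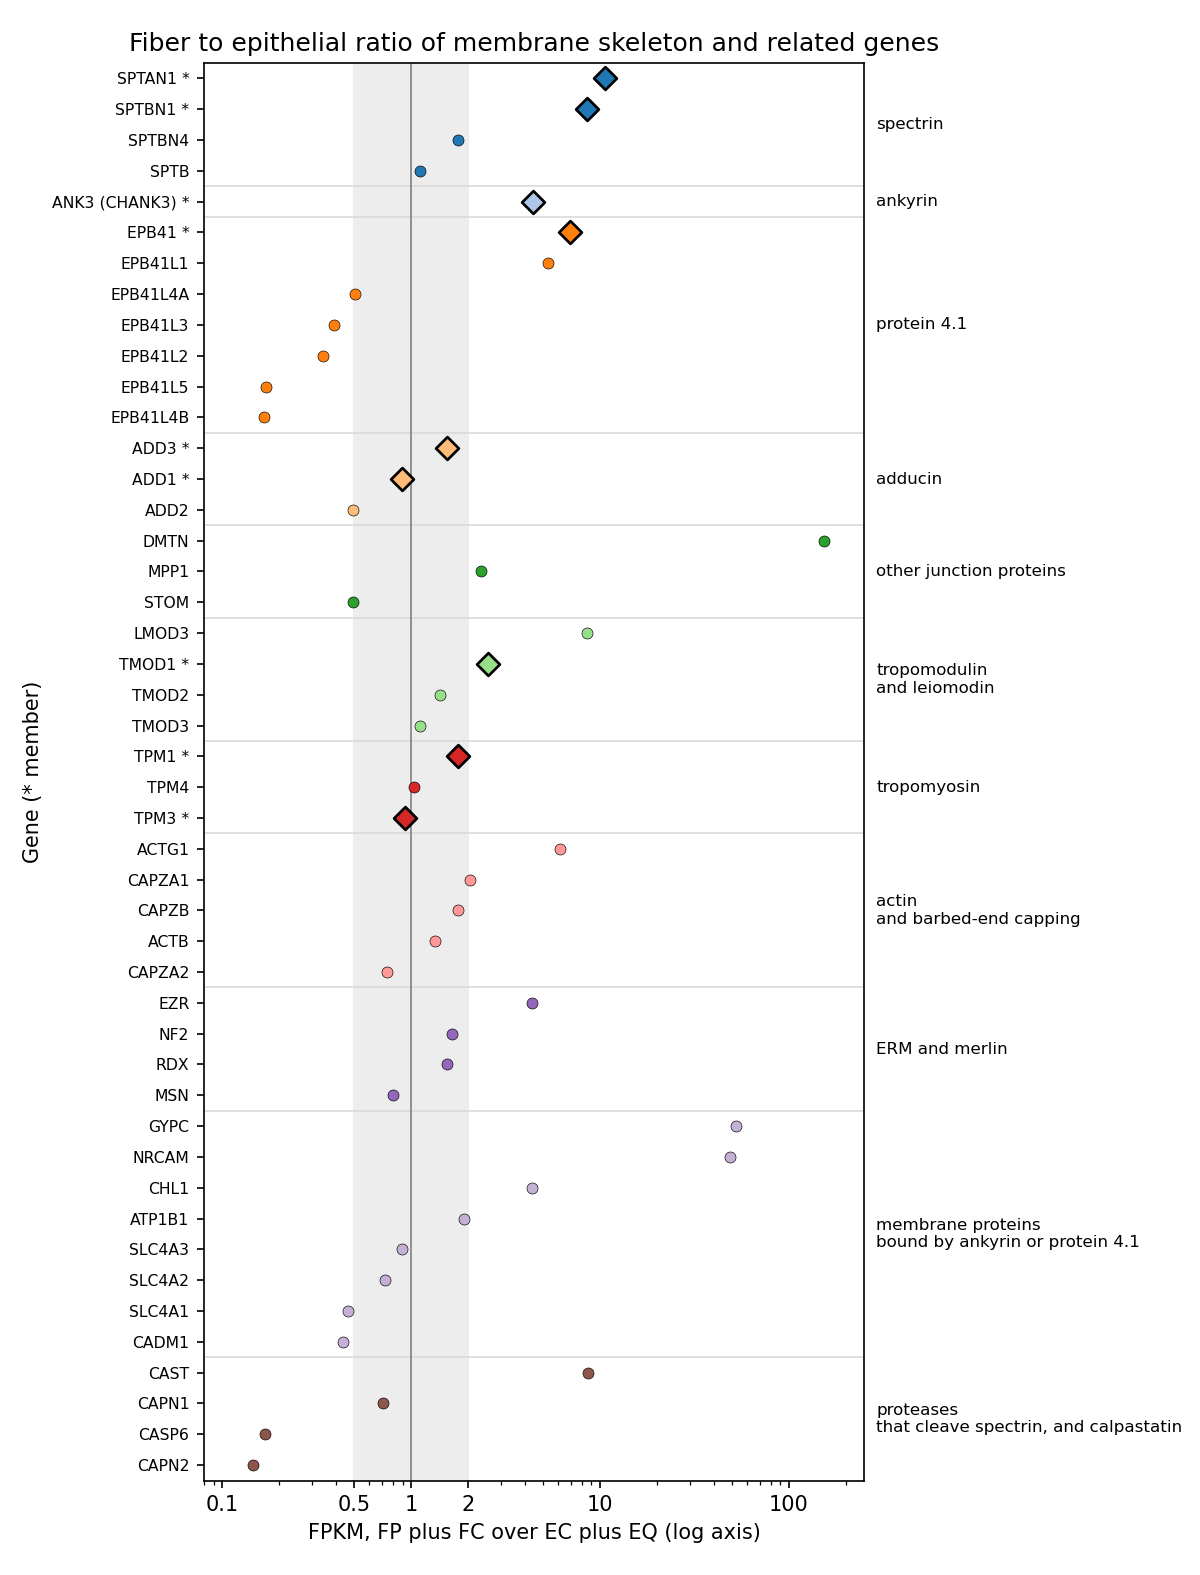
Ratio of FPKM of FP plus FC over EC plus EQ (log axis) for members and CHANK3 (diamonds, marked *) and related genes (circles) with at least 1 FPKM in some region, grouped by list. The shaded band covers ratios from 0.5 to 2. The protein 4.1 family lies on both sides of the band, from 0.167 to 6.92, the tropomyosins lie within it, and DMTN stands farthest to the right at 153.

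Genes whose course resembled that of a member were sought among 8242 loci with a gene symbol and at least 1 FPKM in all regions, by the distance between log2 FPKM centered on its mean over the 4 regions. For SPTAN1, the member with the largest ratio, the nearest were MSRA (distance 0.12), an enzyme that repairs oxidized methionine, PTPN21 (0.15), a phosphatase, and KIF1A (0.21), a motor protein, and 38 loci lay within 0.5. For ADD1, with the smallest ratio, the nearest were KIAA1429 (0.02), DSTN (0.02), an actin-depolymerizing protein, and LONP2 (0.03), a peroxisomal protease. Within 0.5 of ADD1 lay 2121 loci, so a level course of this kind was common. Among the members, SPTAN1 and SPTBN1 lay 0.50 apart, ADD1 and TPM3 0.18, and ADD3 and TPM1 0.19, while TMOD1 was at least 1.25 from every other. With 4 merged values behind each course, these distances are a description.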

How the data were processed

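RNA was taken from 4 lens regions in 2 libraries each (8 in all). Per the study's methods, the authors trimmed short single-end reads from a directional kit, mapped them with TopHat to Galgal4, and used Cufflinks with Cuffdiff 2.1.1 for abundance. The authors deposited 1 FPKM per locus and region, merged over both libraries, with 95% bounds. The delta-crystallin transcript was omitted from their run. Another deposited table holds their own fold changes, p-values and q-values between regions and was not used. The files hold no read counts, and the study gives only an approximate depth per region, so the depth of each library and the spread between pools were not used.

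Named genes were every member and its paralogs, up to 3 genes of largest and 3 of smallest ratio per list, the 3 nearest courses of the members with the largest and smallest ratio, and markers. MPP1, STOM, ACTB and CAPN1 complete lists of few genes. Some listed genes are not reported here and were left out of the lists' counts, sums and shares. Members and lists were chosen with earlier results of these data known. Ratios had no value added and needed at least 1 FPKM in some region. Genes were matched by name or RefSeq synonym. The counting by ratio was tested on simulated data. The simulated intervals were narrower than most in these data, so counts of intervals apart were not checked under like conditions. Alternatives were 3 other scalings, 1 FPKM added, ratio limits of 1.5 and 3, no filter, and intervals apart. Python 3.11.15, numpy 2.4.6, pandas 2.3.3 and matplotlib 3.10.9 were used.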

Additional observations from a re-analysis of the deposited data

How the results depend on the processing

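Toward fibers, 4 members were past a ratio of 2 by the summed regions and 3 by FP over EQ, and when intervals apart were asked for instead both counts were 0. The count of 4 was 6 with regions rescaled to a total and at a limit of 1.5, and 3 at a limit of 3. The count stayed 4 after division by the median ratio to EC or by the upper quartile. Shares of all loci past a ratio were counted only at a limit of 2 in the deposited scaling. Counts at other limits or scalings therefore have no share beside them. For FP over EQ the count was 5 with regions rescaled to a total of 1000000 and 5 at a limit of 1.5. After division by the median ratio to EC it was 4, as TPM1 reached 2.29. From EC to EQ it was 2 at a limit of 1.5 instead of 0. For FC over FP the single call, TMOD1, was lost (0) at a limit of 3 and with intervals apart. Without the filter on low FPKM, 6.80% of loci instead of 3.39% were lower in FC than in FP. No called ratio of a member changed direction under the scalings or with 1 FPKM added. Over these settings the ratio of fibers to epithelium ranged from 10.4 to 21.7 for SPTAN1, from 8.2 to 17.1 for SPTBN1, from 6.56 to 13.9 for EPB41 and from 2.16 to 5.36 for TMOD1, with the top of each range from the rescaling to a total. No member was named by more than 1 locus, so loci were not summed. No library could be left out, as the values are pooled. No paired analysis was possible because the deposited columns carry no replicate number. The tables give no depth per locus, and interval width is the only error they hold.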

Other observations

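Proteases that cut alpha-II spectrin in many cells, calpains and caspases, were also compared, with calpastatin, the inhibitor of calpains. Of 4 such genes compared, 1 was past a ratio of 2 toward fibers and 2 toward epithelium, beside 16.8% and 24.6% of all loci. Calpastatin (CAST) had 94.3 (0.919 to 204) FPKM in FP and 107 (1.9 to 277) in FC, against 10.02 (3.02 to 17.4) in EC and 13.3 (5.79 to 20.9) in EQ, and its ratio of fibers to epithelium was 8.62 with intervals that overlapped. The ratio was 0.168 for CASP6 and 0.145 for CAPN2, the last with lower bounds of 0 in all regions. CAPN1 had a ratio of 0.711, which became 1.41 when regions were rescaled to equal totals.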
